A study of Mus musculus with 30 samples.

Results

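Voltage-gated calcium channels open when a neuron depolarizes and let calcium in, and the alpha-1 subunit forms the pore, senses the voltage and gives each channel its type. The 8 genes described here, *Cacna1a*, *Cacna1b*, *Cacna1c*, *Cacna1d*, *Cacna1e*, *Cacna1g*, *Cacna1h* and *Cacna1i*, are the alpha-1 genes that neurons use, and they were taken by name from the 19737 genes of a whole-brain expression table. The L-type genes (*Cacna1c* and *Cacna1d*) couple calcium entry to transcription and to pacemaking, the P/Q-type (*Cacna1a*) and N-type (*Cacna1b*) genes drive transmitter release at presynaptic terminals, the R-type gene (*Cacna1e*) adds to release and to dendritic calcium signals, and the T-type genes (*Cacna1g*, *Cacna1h* and *Cacna1i*) carry low-voltage currents that sustain burst firing, for example in thalamic neurons. P/Q-type channels are especially abundant in Purkinje and granule cells of the cerebellum.

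Whole-brain RNA was measured in 30 male C57BL/6N mice, 1 library each, in 6 groups of 5. The P10 groups were untreated *Arid1b*+/- mice (HT) and wild-type mice (WT) at postnatal day 10. The 4 P120 groups were HT and WT mice whose dams drank water with 0.2% saccharin from P3 to P21, either alone (HT-Veh and WT-Veh) or with 0.1 mg/ml fluoxetine hydrochloride, a serotonin reuptake inhibitor that reached the pups in milk (HT-Flx and WT-Flx), and whose brains were taken at P120. The HT line carries 1 germline allele of *Arid1b*, a subunit of the BAF chromatin-remodeling complex, that was targeted at exon 5 with CRISPR/Cas9, so every cell type carries it, and the drug intake of single pups was not given in the sources used here.

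The values are normalized read counts. They sum to between 31578600 and 41801000 per library, the raw depth behind them is unknown, and the spread between mice is the only error given. *Arid1b* itself lay between 1973 and 2616 normalized counts in HT libraries and between 2961 and 3392 in WT libraries, with 2 exceptions. HT-Veh replicate 2 had 3361 and WT-Veh replicate 2 had 2320, each in the range of the other genotype. Both were kept under their labels, except that HT-Veh and WT-Veh were compared in replicates 1, 3, 4 and 5. Markers of neurons, astrocytes, oligodendrocytes and the other expected brain cells were all listed, and none was at 0 in every library. Summed over 8 cerebellar granule cell markers, 4 libraries had less than 20000 normalized counts, which were WT-Veh replicates 1 (12283) and 2 (16667) and WT-Flx replicates 2 (6971) and 5 (8950), against 24636 to 54450 in the other 26. The same 4 libraries had between 32581 and 43656 over 8 Purkinje cell markers, against 42999 to 113130 in the other P120 libraries. In such bulk samples, fewer cells of a type and less RNA per cell cannot be told apart.

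The types differ in the pore itself. Each alpha-1 protein has 4 repeats, and each repeat contributes 1 acidic residue to the ring that selects calcium. The stretch of the fourth repeat around that residue is shown for all 8 genes because it separates the T types from the rest at the level of the transcript. Sequences are from the GRCm38 transcripts of GENCODE release M21, 5′ to 3′ on the coding strand, with the codon of the acidic residue in capitals.
Cacna1c: tgtgccaccggaGAGgcctggcaggacatc
Cacna1d: tgtgcaacagggGAAgcctggcaggagatc
Cacna1a: agcgccacaggaGAAgcgtggcacaacatc
Cacna1b: agtgccactgggGAGgcctggcatgagatc
Cacna1e: agtgccacggggGAGgcttggcaggagatt
Cacna1g: gtctccactggtGACaactggaatggtatt
Cacna1h: gtgtccactgggGACaactggaatgggatc
Cacna1i: gtctccacaggcGATaactggaatgggatt
The codon reads GAG or GAA, for glutamate, in the 5 genes of L, P/Q, N and R types, and GAC or GAT, for aspartate, in the 3 T-type genes. All 8 windows are coding and lie within a single exon. They are at chr6:118614047-118614076 on the minus strand in *Cacna1c* (exon 35), chr14:30075941-30075970 on the minus strand in *Cacna1d* (exon 34), chr8:84611599-84611628 on the plus strand in *Cacna1a* (exon 35) and chr2:24635210-24635239 on the minus strand in *Cacna1b* (exon 36). The window of *Cacna1e* is at chr1:154425972-154426001 on the minus strand (exon 37), that of *Cacna1g* at chr11:94416412-94416441 on the minus strand (exon 32), that of *Cacna1h* at chr17:25377768-25377797 on the minus strand (exon 31) and that of *Cacna1i* at chr15:80388485-80388514 on the plus strand (exon 31).

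The table lists these genes by Ensembl identifier. On GRCm38, the L-type genes are *Cacna1c* (ENSMUSG00000051331, chr6:118587240-119196418, minus strand, 47 exons) and *Cacna1d* (ENSMUSG00000015968, chr14:30039939-30491455, minus strand, 47 exons). The P/Q-, N- and R-type genes are *Cacna1a* (ENSMUSG00000034656, chr8:84388440-84640246, plus strand, 47 exons), *Cacna1b* (ENSMUSG00000004113, chr2:24603887-24763152, minus strand, 47 exons) and *Cacna1e* (ENSMUSG00000004110, chr1:154390731-154884501, minus strand, 47 exons). The T-type genes are *Cacna1g* (ENSMUSG00000020866, chr11:94408391-94474198, minus strand, 38 exons), *Cacna1h* (ENSMUSG00000024112, chr17:25374285-25433783, minus strand, 35 exons) and *Cacna1i* (ENSMUSG00000022416, chr15:80287238-80398279, plus strand, 37 exons). Exon numbers are those of the longest protein-coding transcript.

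The 8 genes also differ in base composition, which matters for the comparisons that follow. GC content, taken over the longest protein-coding transcript, was 58.1% in *Cacna1g*, 58.4% in *Cacna1a*, 59.3% in *Cacna1i* and 60.0% in *Cacna1h*, which places these 4 genes at or above the 89.8 percentile of all genes. It was 48.3% in *Cacna1e*, 48.6% in *Cacna1d*, 50.3% in *Cacna1c* and 52.9% in *Cacna1b*, near the median of 49.7% over all genes. The T types and the P/Q type are therefore GC-rich and the L, N and R types are not. All 8 transcripts, of 7926 to 14921 nucleotides, are longer than those of 95.2% or more of the genes. The published description of the libraries does not say whether they mark the strand. If they do not, reads from the 589 exonic bases that *Cacna1d* shares with *Chdh* cannot be assigned to one gene by strand. The same holds for the 435 that *Cacna1a* shares with the antisense RNA *Gm16183* and the 158 that *Cacna1h* shares with *Tpsg1*.

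To compare the genes with each other, the normalized counts were divided by the length of the longest protein-coding transcript in kilobases (kb). In P10 WT brains, the P/Q-type gene *Cacna1a* was highest at 1554 ± 47.9 normalized counts per kb (SD, n = 5 mice), followed by the T-type *Cacna1g* at 1356 ± 71.5. Neither overlapped its neighbor in this order. The R-type *Cacna1e* (873 ± 37.3) and the N-type *Cacna1b* (774 ± 64.2) came next with overlapping ranges, and *Cacna1i* (437 ± 24.7), *Cacna1h* (405 ± 42.9), *Cacna1c* (335 ± 16.3) and *Cacna1d* (334 ± 8.45) formed a low group in which each overlapped the next. WT-Veh brains at P120 began with the same genes, *Cacna1a* at 1234 ± 89.7 and *Cacna1g* at 1029 ± 76.1 per kb, each above the next in 5 of 5 mice. Below them the order differed, since *Cacna1i* (600 ± 48.9) stood above *Cacna1b* (492 ± 64.6) in 5 of 5 mice, whereas at P10 *Cacna1b* was above *Cacna1i* in 5 of 5 mice. *Cacna1e* (649 ± 98.2) and *Cacna1i* overlapped in WT-Veh, and *Cacna1h* (423 ± 89.9), *Cacna1c* (312 ± 42.3) and *Cacna1d* (280 ± 52.8) again came last.

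The order in HT brains at P10 differed from that in WT brains only in the last 2 places, which *Cacna1c* and *Cacna1d* held with overlapping ranges in both. In HT-Veh, only *Cacna1b* was apart from the gene below it, *Cacna1c*, and all other neighbors overlapped. *Cacna1a* was the highest of the 8 genes in each of the 6 groups by its mean, from 1033 ± 125 per kb in WT-Flx to 1554 ± 47.9 in P10 WT. *Cacna1g* and *Cacna1e* had the same mean level in WT-Flx, 747 ± 86.5 and 747 ± 77.4 per kb, whereas in HT-Flx *Cacna1g* reached 1351 ± 180 and *Cacna1e* 519 ± 155 without overlap. *Cacna1d* had the lowest mean in the 4 P120 groups, between 227 ± 18.6 per kb in HT-Flx and 286 ± 24.3 in WT-Flx.

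**Figure D1:**
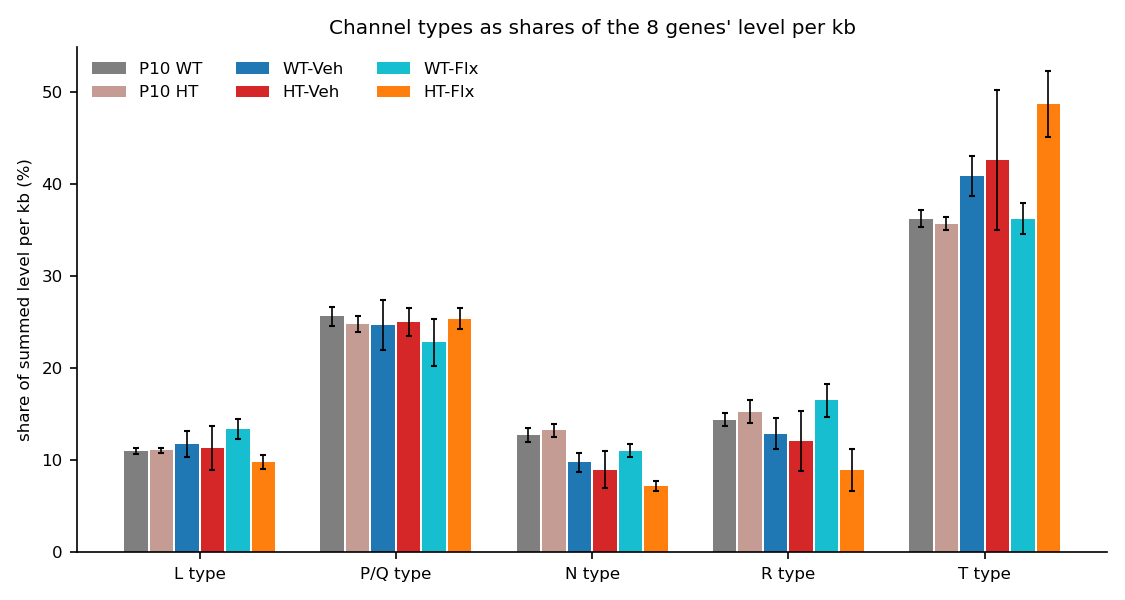
Share of each channel type (x axis) in the summed level per kb of the 8 genes (y axis, percent), as the mean of 5 mice per group with the SD as error bars. The T types held the largest share in every group, from 35.6% in P10 HT to 48.6% in HT-Flx, and the P/Q share stayed between 22.8% and 25.6%. The shares are not corrected for GC content.

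The T types together held 36.2 ± 0.921% of the summed level per kb in P10 WT (SD, n = 5), 35.6 ± 0.707% in P10 HT, 40.9 ± 2.16% in WT-Veh and 42.6 ± 7.56% in HT-Veh, as the plot of type shares shows. The share was 36.2 ± 1.70% in WT-Flx and 48.6 ± 3.60% in HT-Flx, and these 2 groups did not overlap (highest WT-Flx 38.2%, lowest HT-Flx 44.5%). The P/Q share varied least, with group means from 22.8% to 25.6%. The N share was 12.7 ± 0.806% in P10 WT, 9.78 ± 1.03% in WT-Veh and 7.24 ± 0.536% in HT-Flx. The R share was 14.4 ± 0.691% in P10 WT, 16.5 ± 1.78% in WT-Flx and 8.94 ± 2.25% in HT-Flx, and the L share ran from 9.81 ± 0.785% in HT-Flx to 13.4 ± 1.07% in WT-Flx. These shares are relative, so a type's share can move without its own level. They were not corrected for GC content, which is high in the T-type genes. In HT-Flx against WT-Flx, the GC and length correction described below gave log2 fold changes of 0.24 (*Cacna1g*), 0.17 (*Cacna1i*) and −0.31 (*Cacna1h*).

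**Figure D2:**
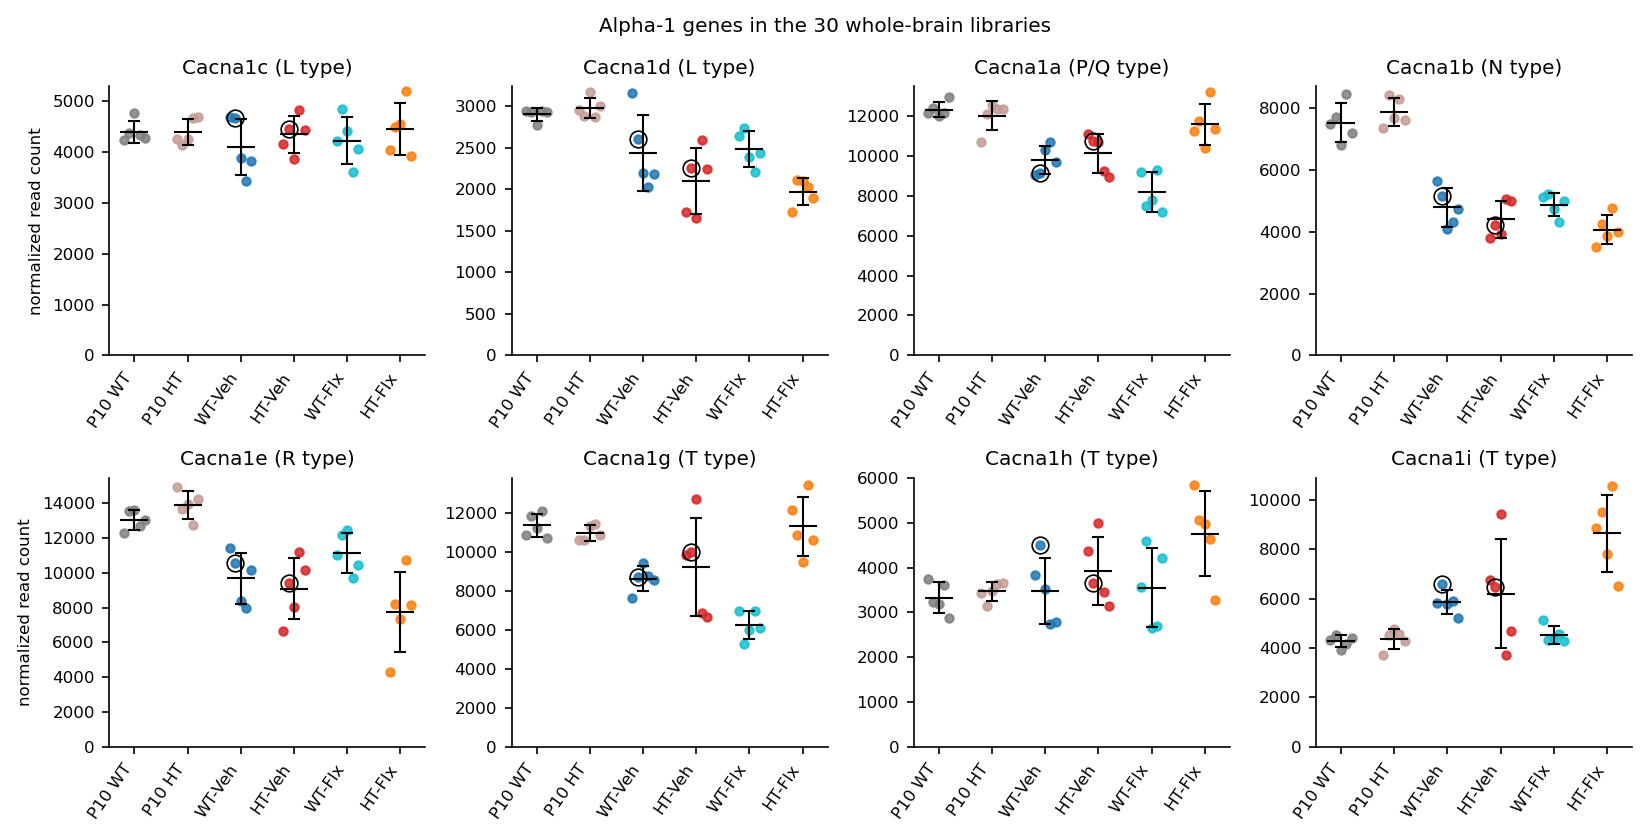
Normalized read counts (y axis, from 0) of the 8 genes in the 6 groups (x axis), with 1 point per mouse and the mean and SD in black. Rings mark HT-Veh replicate 2 and WT-Veh replicate 2. The means of *Cacna1a*, *Cacna1b*, *Cacna1d* and *Cacna1e* are lower at P120 than at P10 in all 4 adult groups, and single mice can overlap.

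The first comparison asks how the channel genes differ between the young and the adult WT brain (WT-Veh at P120 against P10 WT). The N-, R-, P/Q- and 1 of the T-type genes were lower in adults, and another T-type gene was higher. Since the P10 mice were untreated and the adults had received saccharin vehicle as pups, age and vehicle cannot be told apart here. Of the 8 genes, 5 fell and 1 rose at an adjusted p under 0.05 (limma on log2(value + 1), all adjusted p-values below are from this test with Benjamini-Hochberg adjustment over all tested genes), while 58.3% of the 17927 tested genes changed, 29.4% lower and 28.9% higher. In 5 of the 8, the 2 groups did not overlap, against 45.6% of all tested genes. The median log2 fold change of the 8 was −0.30, against −0.01 over all tested genes.

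*Cacna1b* had the largest decrease. Its normalized counts in replicates 1 to 5 were 7483, 7721, 6803, 8466 and 7186 in P10 WT, and 5649, 5147, 4100, 4302 and 4736 in WT-Veh, so every adult value was below every P10 value. Its log2 fold change amounted to −0.66 (standard error 0.09, adjusted p = 4.18e-05, exact permutation p = 0.00794, the smallest that 5 against 5 mice allow). *Cacna1e* had 12281, 13547, 13574, 12695 and 13019 in P10 WT and 11402, 10529, 8378, 7948 and 10136 in WT-Veh, again without overlap (log2 fold change −0.44, standard error 0.09, adjusted p = 0.00130).

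*Cacna1a* had 12128, 12388, 11986, 12126 and 12942 normalized counts in P10 WT and 9055, 9167, 10280, 10710 and 9705 in WT-Veh. All adult values were lower, by −0.33 on the log2 scale (standard error 0.06, adjusted p = 0.000415). *Cacna1d* fell by less, −0.27 with an adjusted p of 0.0377, and its groups overlapped because WT-Veh replicate 1, at 3159, exceeded all P10 values (2767 to 2935). Its call was lost in 8 of the 10 fits that left out 1 mouse and after correction for GC content and length (−0.14, adjusted p = 0.26). The other L-type gene, *Cacna1c*, had values of 4242 to 4775 in P10 WT and 3442 to 4698 in WT-Veh, with a log2 fold change of −0.11 (95% interval −0.30 to 0.08).

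The T types went in different directions. *Cacna1g*, the main T-type gene of thalamic relay and cerebellar neurons, had 10873, 11848, 11249, 12119 and 10749 in P10 WT and 7657, 8699, 9441, 8755 and 8575 in WT-Veh, a log2 fold change of −0.40 (standard error 0.07, adjusted p = 0.000177). *Cacna1i*, the T-type gene of reticular thalamic neurons among others, had 4326, 4532, 3908, 4177 and 4416 in P10 WT and 5820, 6573, 5794, 5919 and 5231 in WT-Veh, a log2 fold change of 0.46 (standard error 0.07, adjusted p = 8.76e-05). Neither gene overlapped between the ages, so within the same libraries one T-type gene was lower and the other higher. *Cacna1h* did not pass the test, with 2869 to 3750 in P10 WT and 2753 to 4506 in WT-Veh and a log2 fold change of 0.04 (95% interval −0.24 to 0.32).

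The balance of the 2 changing T-type genes can be read inside each library, as the log2 ratio of *Cacna1i* to *Cacna1g*. It was −1.41 ± 0.11 in P10 WT and −1.33 ± 0.12 in P10 HT (SD, n = 5 each), and −0.56 ± 0.15 in WT-Veh, −0.60 ± 0.18 in HT-Veh, −0.46 ± 0.12 in WT-Flx and −0.40 ± 0.20 in HT-Flx. The highest P10 value was −1.23 and the lowest P120 value was −0.89, so no P10 library overlapped any P120 library. Among the 4 P120 groups, the ranges of this ratio overlapped.

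The calls of 5 genes held under every setting tried for the WT age comparison. *Cacna1a*, *Cacna1b*, *Cacna1e* and *Cacna1g* were lower and *Cacna1i* was higher, past the threshold, in all 24 alternatives to this comparison, with log2 fold changes from −0.85 to −0.61 for *Cacna1b*, −0.60 to −0.35 for *Cacna1g*, −0.55 to −0.27 for *Cacna1a*, −0.57 to −0.31 for *Cacna1e* and 0.18 to 0.50 for *Cacna1i*. Without the 2 WT-Veh libraries that were low in cerebellar markers, 7 of the 8 genes passed, with *Cacna1c* at −0.25 (adjusted p = 0.00748) and *Cacna1d* at −0.44 (adjusted p = 6.76e-05). The share of all genes called in that fit is not given here. Without WT-Veh replicate 1 alone, 10707 of all genes passed, against 10451 in the full comparison. These 2 libraries, WT-Veh replicates 1 and 2, had the lowest WT-Veh values of *Cacna1a* (9055 and 9167). They had the highest of *Cacna1b* (5649 and 5147), *Cacna1c* (4698 and 4669), *Cacna1d* (3159 and 2599), *Cacna1e* (11402 and 10529) and *Cacna1h* (3830 and 4506). *Cacna1h*, at −0.14 without them (adjusted p = 0.26), was lower with the GC and length correction added (−0.37, adjusted p = 0.00288). Markers of immature neurons moved with age as well, and all 6 fell in this comparison, from a sum of 16904 to 22364 in P10 WT to 3290 to 4273 in WT-Veh. The sum over 8 Purkinje cell markers was 26277 to 33244 in P10 WT and 39994 to 88315 in WT-Veh (2 genes higher, none lower), and 4 of 8 oligodendrocyte markers were higher, with overlapping sums of 131383 to 255999 and 187255 to 276058. The part of these markers in the channel gene differences was not tested.

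HT brains were compared between the ages in the same way (HT-Veh against P10 HT). *Cacna1b*, *Cacna1e* and *Cacna1d* fell, and none of the 8 rose, where 51.1% of 17989 tested genes changed, with 25.3% lower and 25.8% higher. *Cacna1b* had 7366, 8439, 7672, 8279 and 7606 normalized counts in P10 HT and 3802, 4223, 3915, 5049 and 5010 in HT-Veh (log2 fold change −0.85, standard error 0.11, adjusted p = 4.57e-05). *Cacna1e* had 14928, 13640, 13929, 12750 and 14239 against 6678, 9395, 8008, 11160 and 10176 (−0.63, standard error 0.14, adjusted p = 0.00185), and *Cacna1d* had 2869 to 3165 against 1654 to 2597 (−0.52, standard error 0.13, adjusted p = 0.00439). In these 3 genes the ages did not overlap, as in 40.2% of all tested genes, and they passed in all 22 alternatives. The values ranged from −0.92 to −0.80 for *Cacna1b*, −0.71 to −0.40 for *Cacna1e* and −0.61 to −0.30 for *Cacna1d*, with the correction for GC content and length giving −0.92, −0.41 and −0.30.

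The 4 GC-rich genes did not pass, and neither did *Cacna1c*, with a log2 fold change of −0.02 (95% interval −0.23 to 0.19). *Cacna1h* was at 0.16 (95% interval −0.12 to 0.44). *Cacna1g* had 10609 to 11448 in P10 HT and 6668 to 12733 in HT-Veh (−0.29, 95% interval −0.65 to 0.06), *Cacna1a* had 10721 to 12546 and 8924 to 11082 (−0.25, adjusted p = 0.059), and *Cacna1i* had 3715 to 4778 and 3701 to 9402 (0.44, adjusted p = 0.0907). With the correction for GC content and length, *Cacna1a* (−0.62, adjusted p = 0.000141) and *Cacna1g* (−0.58, adjusted p = 2.67e-05) were lower in adults as in WT brains. *Cacna1i* was then at 0.06 (adjusted p = 0.54). Replicate 3 of HT-Veh held the highest values of *Cacna1g* and *Cacna1i*. Without it, 5 of the 8 genes passed, *Cacna1g* among them at −0.42 (adjusted p = 0.0222), while *Cacna1i* was at 0.27 (adjusted p = 0.21). Of all genes, 9184 passed in the full comparison and 8128 to 10177 when 1 library was left out. *Cacna1i* passed without HT-Veh replicate 4, at 0.60. Markers moved with age in HT brains too. All 6 immature neuron markers fell, from sums of 18088 to 20658 in P10 HT to 2933 to 3799 in HT-Veh, and 6 of 8 Purkinje cell markers (27027 to 31693 and 58196 to 88575) and 6 of 8 oligodendrocyte markers (97687 to 186313 and 207666 to 261009) were higher. Their part in the channel gene differences was not tested. The age differences of HT and WT brains were compared by the interaction of genotype and age, which was under the threshold for none of the 8 genes, with log2 differences from −0.25 (*Cacna1d*) to 0.12 (*Cacna1h*) and 95% intervals reaching from −0.60 to 0.51, for 0 of 17978 genes adjusted and for 3.40% at an unadjusted p under 0.05.

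The genotype comparison at P10 asks whether HT brains differ before any treatment. None of the 8 genes passed (smallest adjusted p = 0.415, *Cacna1e*), where 0.0224% of 17896 genes did, and 0 of the 8 had an unadjusted p under 0.05, against 12.6% of all genes. Log2 fold changes ran from −0.05 (*Cacna1g*, 10644, 10609, 11336, 11448 and 10870 in HT) to 0.09 (*Cacna1e*), and the 95% intervals of all 8 lay between −0.14 and 0.21. All groups overlapped, where 3.12% of genes did not. At P10 the mice of one group were close to each other, with a coefficient of variation of 2.53% for *Cacna1d* and 3.08% for *Cacna1a* in WT, up to 10.6% for *Cacna1h*.

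Vehicle-treated adults gave wider intervals. Between 4 HT-Veh and 4 WT-Veh mice, log2 fold changes ran from −0.22 (*Cacna1d*) to 0.30 (*Cacna1h*), the 95% intervals of the 8 genes reached from −0.65 to 0.71, and all groups overlapped, where 1.04% of genes did not. No gene of the 17784 tested passed (0%), with 1.29% at an unadjusted p under 0.05 and none of them among the 8. In all 5 and 5 mice the count was again 0. The coefficient of variation in the 5 HT-Veh mice was highest for *Cacna1i* (35.3%) and *Cacna1g* (27.3%), which had 8.15% and 7.40% in WT-Veh. It was 19.5% for *Cacna1e*, 19.2% for *Cacna1h*, 18.9% for *Cacna1d* and 13.5% for *Cacna1b*, and lowest for *Cacna1a* (9.60%) and *Cacna1c* (8.34%).

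The values of *Cacna1i* and *Cacna1g* in HT-Veh moved with a property of the whole library. For each library, the deviation of each of 17945 genes from its mean over the 30 libraries was regressed on the GC content of the gene, which gives a slope in log2 units per 10 percentage points of GC. The HT-Veh slopes were 0.57, 0.27, 0.35, −0.25 and −0.19 in replicates 1 to 5. *Cacna1i* was 6758, 6478 and 9402 in the 3 libraries with positive slopes and 3701 and 4677 in the others, and *Cacna1g* was 9864, 10008 and 12733 against 6864 and 6668. *Cacna1e*, with a GC content of 48.3%, near the median of 49.7%, went the other way, at 6678, 9395 and 8008 against 11160 and 10176. Over the groups, the slopes were −0.25 ± 0.01 in P10 WT, −0.31 ± 0.08 in P10 HT, 0.05 ± 0.19 in WT-Veh, 0.15 ± 0.36 in HT-Veh, −0.22 ± 0.05 in WT-Flx and 0.58 ± 0.18 in HT-Flx (SD, n = 5). All 5 HT-Flx slopes (0.43 to 0.85) were above all 5 WT-Flx slopes (−0.27 to −0.17).

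**Figure D3:**
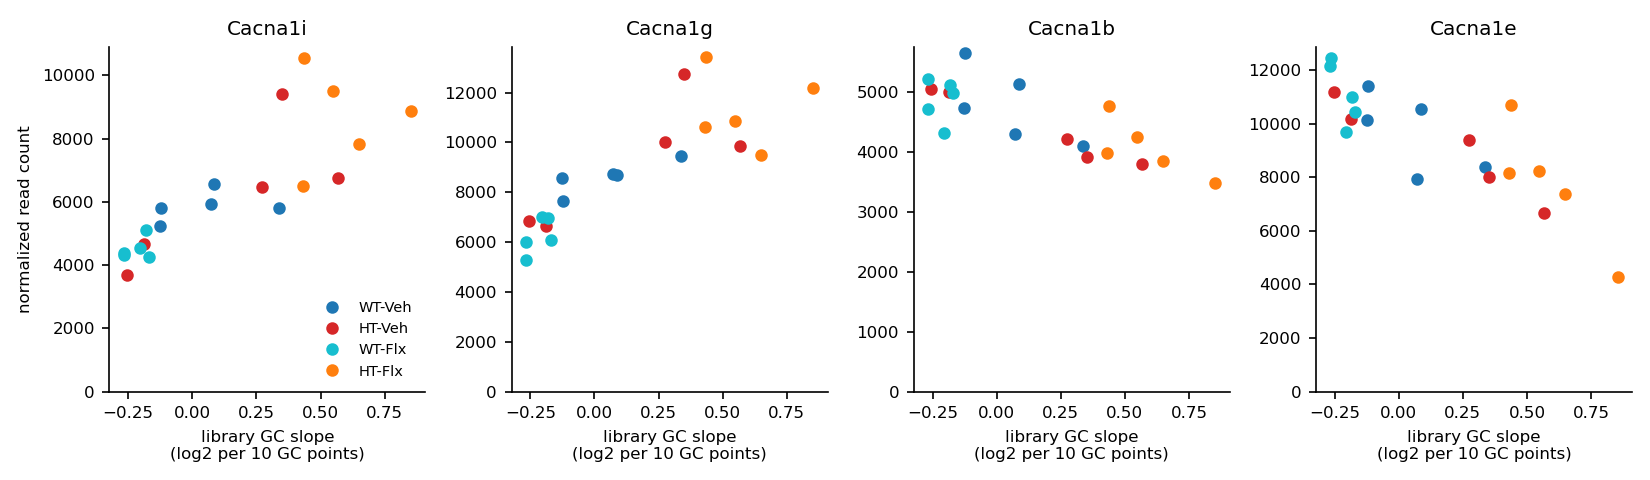
Normalized read counts (y axis, from 0) of 4 alpha-1 genes against the GC slope of the library (x axis, log2 units per 10 percentage points of GC) in the 20 P120 libraries, colored by group. The GC-rich *Cacna1i* and *Cacna1g* lie higher, and *Cacna1b* and *Cacna1e* lower, in libraries with positive slopes, and HT-Flx holds the highest slope, 0.85.

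The largest genotype differences among the alpha-1 genes were found in fluoxetine-treated adults (HT-Flx against WT-Flx). The P/Q-type and 2 T-type genes were higher in HT-Flx, and the N-, R- and 1 of the L-type genes were lower. With 3 higher and 3 lower, 6 of the 8 passed, where 63.7% of the 17799 tested genes did (33.1% higher and 30.5% lower), so the share of the members is close to that of all genes. Groups did not overlap for 4 of the 8, against 48.5% of all genes. The median log2 fold change of the 8 was 0.25, against 0.02 over all tested genes. Some glial markers also differed between these groups, before any correction for GC content. The sums over 8 astrocyte markers (3 higher and 4 lower in HT-Flx) overlapped, at 136603 to 167994 in WT-Flx and 126925 to 167602 in HT-Flx. Those over 8 microglia markers (3 higher and 1 lower) overlapped too, at 7305 to 9066 and 8913 to 13551. Over 8 oligodendrocyte markers, of which 4 were higher and 2 lower in HT-Flx, the sum was 188883 to 249338 in WT-Flx and 262182 to 289608 in HT-Flx, and over 6 markers of oligodendrocyte precursors (4 higher and 1 lower) it was 11172 to 13037 and 14011 to 19338. Their part in the channel gene differences was not tested.

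*Cacna1i* had 5124, 4323, 4376, 4553 and 4270 normalized counts in WT-Flx and 8868, 9492, 7818, 10554 and 6500 in HT-Flx. The lowest HT-Flx mouse was above the highest WT-Flx mouse, with a log2 difference of 0.92 (standard error 0.12, adjusted p = 5.73e-05, exact permutation p = 0.00794). *Cacna1g* had 6965, 5274, 6008, 6996 and 6086 against 12185, 10875, 9514, 13424 and 10629 (0.85, standard error 0.11, adjusted p = 5.24e-05), and *Cacna1a* had 9207, 7479, 7781, 9298 and 7180 against 11253, 11758, 10382, 13202 and 11359 (0.51, standard error 0.10, adjusted p = 0.000619). None of the 3 overlapped. *Cacna1h*, with 2652 to 4601 and 3284 to 5852, missed the threshold at 0.43 (adjusted p = 0.0515) and passed without HT-Flx replicate 5 (0.56) or without WT-Flx replicate 2 or 5.

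*Cacna1e* had 11006, 12146, 12446, 9687 and 10440 in WT-Flx and 4282, 8225, 7360, 10706 and 8166 in HT-Flx, a log2 fold change of −0.58 (standard error 0.19, adjusted p = 0.0185). Replicate 4 of HT-Flx lay inside the WT-Flx range, and replicate 1, at 4282, was the lowest of all 30 libraries. It also had the steepest GC slope, 0.85, and without it the log2 fold change of *Cacna1e* was −0.38. *Cacna1d* had 2210 to 2740 against 1729 to 2114 without overlap (−0.33, standard error 0.09, adjusted p = 0.00500), and *Cacna1b* had 4319 to 5226 against 3493 to 4776 (−0.26, standard error 0.09, adjusted p = 0.0250). The call of *Cacna1b* was lost without HT-Flx replicate 3 or WT-Flx replicate 1, 2 or 5, with values from −0.32 to −0.21 over all fits that left out 1 library. *Cacna1c* did not pass, with 3610 to 4844 and 3935 to 5215 and a log2 fold change of 0.07 (95% interval −0.14 to 0.29).

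These differences lined up with GC content. Over all tested genes, the median log2 fold change of HT-Flx against WT-Flx rose from −0.95 in the lowest of 10 equal classes of GC content to 0.63 and 0.74 in the 2 highest classes. *Cacna1a*, *Cacna1g*, *Cacna1h* and *Cacna1i* belong to these 2 classes, and their log2 fold changes of 0.43 to 0.92 surround these medians. *Cacna1b*, with 52.9% GC, went against this trend, at −0.26 beside a median of 0.34 in the class around 52.9%. *Cacna1d* (48.6% GC) was at −0.33 and *Cacna1e* (48.3% GC) at −0.58. The classes around 47.2% and 49.1% had medians of −0.34 and −0.08. After each library's mean deviation was subtracted within 100 bins of GC content and length, *Cacna1i* was at 0.17 (adjusted p = 0.0755) and *Cacna1g* at 0.24 (adjusted p = 0.0352). *Cacna1a* changed sign, from 0.51 to −0.24 (adjusted p = 0.0421), and *Cacna1h* was at −0.31 (adjusted p = 0.17). *Cacna1b* became more clearly lower, at −0.53 (adjusted p = 0.000580), and *Cacna1e* stayed lower at −0.39 (adjusted p = 0.0338). *Cacna1d* lost its call, at −0.15 (adjusted p = 0.23), and the direction turned for *Cacna1a* and *Cacna1h* and held for the other 6 genes. The count over all genes went from 11330 to 6398 with this correction.

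**Figure D4:**
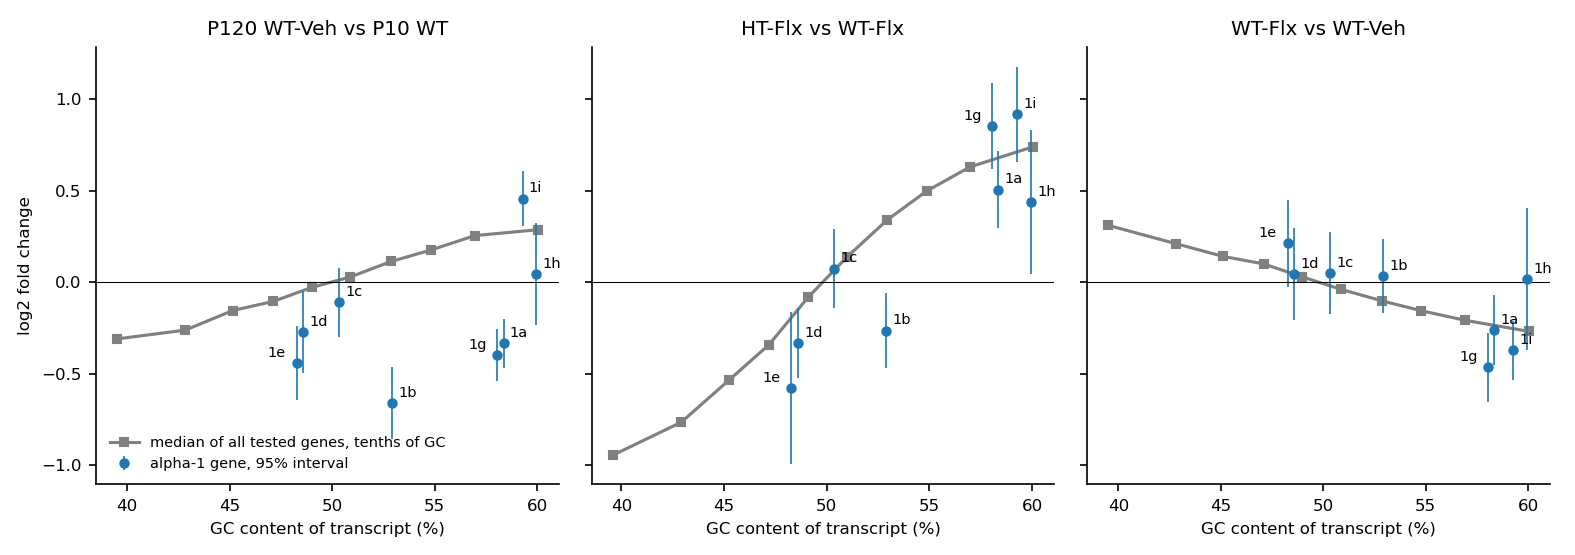
Log2 fold change (y axis) against the GC content of the longest protein-coding transcript (x axis, percent) in 3 comparisons. Blue points are the 8 genes with 95% intervals, named without the prefix Cacna, and grey squares are the medians of all tested genes in 10 equal classes of GC content, which run from −0.95 to 0.74 in HT-Flx against WT-Flx.

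Leaving out the 2 WT-Flx libraries that were low in cerebellar markers gave 5 of 8 genes past the threshold, and the share of all genes in this fit is not given here. *Cacna1g* (0.76, adjusted p = 0.00085), *Cacna1i* (0.87, adjusted p = 0.00103) and *Cacna1a* (0.40, adjusted p = 0.00829) stayed higher and *Cacna1h* then passed as well (0.67, adjusted p = 0.00825), while *Cacna1b* (−0.22, adjusted p = 0.13) and *Cacna1e* (−0.56, adjusted p = 0.0623) did not. WT-Flx replicates 2 and 5, the 2 that were left out, had the highest *Cacna1h* values of their group, 4601 and 4224, against 2652 to 3574 in the others. With the correction added, *Cacna1b* (−0.44, adjusted p = 0.00657) and *Cacna1a* (−0.31, adjusted p = 0.0282) passed, both lower in HT-Flx.

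Fluoxetine was compared with vehicle within each genotype, to ask what early treatment left behind in the adult brain. In WT mice none of the 8 genes passed, nor did any other gene (0% of 17865, with 25.2% at an unadjusted p under 0.05, among them *Cacna1a*, *Cacna1g* and *Cacna1i*). *Cacna1g* was 7657, 8699, 9441, 8755 and 8575 in WT-Veh and 6965, 5274, 6008, 6996 and 6086 in WT-Flx, a log2 fold change of −0.47 (standard error 0.09, adjusted p = 0.0849, exact permutation p = 0.00794). *Cacna1i* was 5231 to 6573 in WT-Veh and 4270 to 5124 in WT-Flx (−0.37, standard error 0.08, adjusted p = 0.0849). Neither gene overlapped between the treatments, as in 6.41% of all tested genes. Both passed when either WT-Veh replicate 1 or replicate 5 was left out (*Cacna1g* at −0.51 without replicate 1), and both shrank with the correction for GC content and length, to −0.26 and −0.11. *Cacna1a* had a log2 fold change of −0.26 (adjusted p = 0.12), which was 0.00 after the correction, and the other 5 genes lay between 0.02 and 0.21.

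In HT mice, again 0 of the 8 genes and 0% of 17676 tested genes passed, with 23.1% at an unadjusted p under 0.05. Of the 8, *Cacna1i* was the one below that level, at 0.53 (95% interval 0.05 to 1.02, adjusted p = 0.22), from 3701 to 9402 in HT-Veh and 6500 to 10554 in HT-Flx. All 8 genes overlapped between the treatments, where 1.62% of genes did not. The others ran from −0.27 (*Cacna1e*, 95% interval −0.74 to 0.21) to 0.33 (*Cacna1g*, 95% interval −0.06 to 0.72), and differences within these intervals were not detectable here. With the correction, *Cacna1i* was at 0.17 and *Cacna1g* at 0.00.

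**Figure D5:**
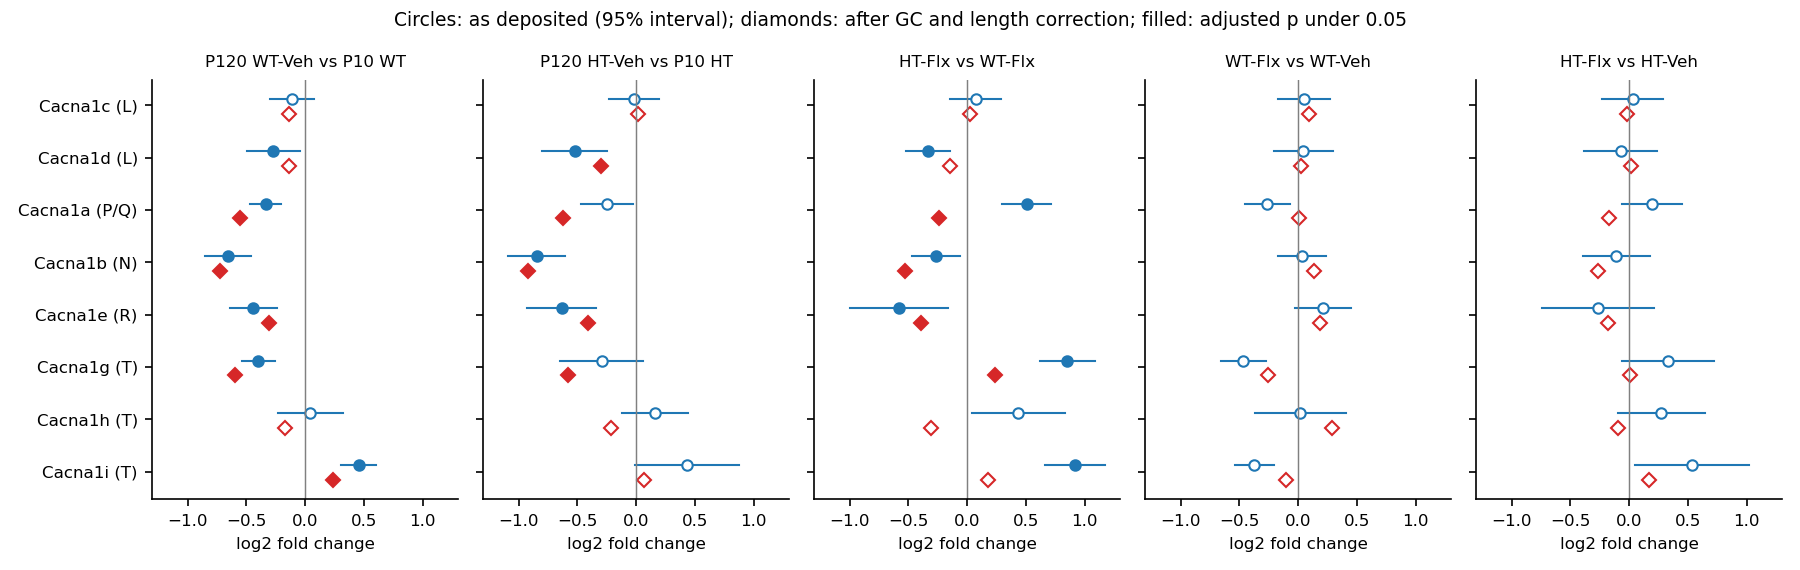
Log2 fold changes (x axis) of the 8 genes (rows) in 5 comparisons (panels). Blue circles are the values as deposited with 95% intervals, red diamonds the values after correction for GC content and length, and filled symbols have an adjusted p under 0.05; *Cacna1b* and *Cacna1e* are filled on both scales in the age comparisons, and *Cacna1a* changes side in HT-Flx against WT-Flx.

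The interaction of genotype and fluoxetine tests whether the treatment difference of HT mice differs from that of WT mice. It passed for *Cacna1i* (0.91, standard error 0.25), *Cacna1g* (0.79, standard error 0.21) and *Cacna1a* (0.46, standard error 0.14), each with an adjusted p of 0.0347, where 27.3% of the 17796 tested genes passed, with 15.8% positive and 11.5% negative. The other 5 genes ran from −0.48 (*Cacna1e*) to 0.26 (*Cacna1h*). This result was fragile. None of the 8 passed without HT-Veh replicate 2 and WT-Veh replicate 2, without the 4 libraries low in cerebellar markers, or with the correction, where *Cacna1i* was at 0.27 (adjusted p = 0.19), *Cacna1g* at 0.26 (adjusted p = 0.21) and *Cacna1a* at −0.18 (adjusted p = 0.48). It also dropped to 0 of 8 in 8 of the 20 fits that left out 1 library, those without HT-Flx replicate 1, WT-Flx replicate 2 or 3, HT-Veh replicate 4 or 5, or WT-Veh replicate 2, 3 or 4.

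The alpha-1 subunits work with auxiliary subunits that set their number at the membrane and their gating. Of the 4 alpha-2-delta genes, which promote channel trafficking, *Cacna2d1* and *Cacna2d3* were lower in adults than at P10, by −0.81 (adjusted p = 0.00124) and −0.63 (adjusted p = 0.000950) in WT brains and by −1.13 and −0.76 in HT brains (adjusted p = 0.000566 and 0.00205). Of the 4 beta genes, *Cacnb1* (0.45), *Cacnb2* (0.35) and *Cacnb3* (0.43) were higher in adult WT brains and *Cacnb1* (0.54) and *Cacnb3* (0.58) in adult HT brains, with adjusted p-values of 0.000598, 0.00168, 0.00157, 0.00830 and 0.0172. With the correction for GC content and length, *Cacnb3* passed in neither genotype (0.17 in both), *Cacnb1* passed in WT (0.21) but not in HT brains (0.11, adjusted p = 0.23), and *Cacnb4* passed in WT (0.27). *Cacnb2* was then higher in both (0.50 in WT and 0.41 in HT). *Cacna2d1* (−0.37 in WT and −0.50 in HT), *Cacna2d2* (−0.24 and −0.37) and *Cacna2d3* (−0.47 and −0.56) were lower in both.

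Of the 8 gamma-family genes, which include regulators of AMPA receptors, 7 were tested. The largest age difference in this list was in *Cacng4*, at −1.39 in WT (adjusted p = 8.44e-09) and −1.37 in HT (adjusted p = 7.89e-07). *Cacng5* (−0.59 and −0.47) and *Cacng6* (−0.65 and −0.95) fell in both genotypes and *Cacng8* (0.20 and 0.33) was higher in both, though not with the correction. *Cacng2* (−0.23) was lower and *Cacng7* (0.17) higher in WT brains, and neither passed with the correction (−0.14 and −0.068). *Cacng3* was lower with the correction in WT (−0.29, adjusted p = 0.0137) and HT brains (−0.48, adjusted p = 0.000533). Of the 4 RGK inhibitors of the channels, *Rem2* was lower in adults in WT (−0.70, adjusted p = 0.000149) and HT brains (−0.59, adjusted p = 0.00112), and *Rrad* was higher in HT brains (0.65, adjusted p = 0.0119). With the correction *Rem2* passed in both and *Rrad* did not (0.15, adjusted p = 0.55). In HT-Flx against WT-Flx, 7 of 15 auxiliary genes were higher and 4 lower, where 63.7% of all tested genes were called (33.1% higher and 30.5% lower). They were led by *Cacng5* (0.82, adjusted p = 3.35e-05) and *Cacnb4* (−1.35, adjusted p = 0.000605). The others were *Cacna2d1* (−1.09), *Cacna2d3* (−0.84), *Cacnb2* (−0.70), *Cacnb1* (0.71), *Cacnb3* (0.69), *Cacng2* (0.28), *Cacng4* (0.38), *Cacng7* (0.76) and *Cacng8* (0.43), beside *Gem* (−0.87) of the RGK list. With the correction *Cacng5* (0.69), *Cacnb2* (−0.35) and *Cacna2d3* (−0.70) passed. The interaction of genotype and fluoxetine passed for *Cacna2d3* (−0.72), *Cacnb2* (−0.60), *Cacng4* (0.39), *Cacng5* (0.69) and *Cacng7* (0.68), and for none of them with the correction. None of the 15 passed in the genotype comparisons at P10 or in vehicle or in the fluoxetine comparisons within a genotype.

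Among 17 genes whose products bind or regulate the channels, 5 were higher and 3 lower in adult WT brains. The same counts were found in HT brains, where 58.3% (WT) and 51.1% (HT) of all tested genes were called. The extremes were *Cabp1*, a calcium-binding modulator (1.68 in WT and 1.75 in HT), and *Stac2*, an adaptor of L-type channels (1.57 and 1.73), on the high side, and *Akap7* (−1.06 and −1.26) and *Akap5* (−0.74 and −0.95), which anchor protein kinase A, on the low side. All 8 of these values passed, with adjusted p-values up to 0.00869, and they passed with the correction too, where *Akap5* was at −0.41 and −0.45. In HT-Flx against WT-Flx the list had 5 genes higher and 7 lower, beside the same 63.7% of all genes, with *Stac* (0.96) and *Calm3* (0.92) at one end and *Akap5* (−1.06) and *Akap7* (−0.91) at the other. After the correction 2 were higher, *Calm3* (0.33) and *Cabp1* (0.20), and *Rims2* was lower (−0.56). The interaction of genotype and fluoxetine was positive for *Calm3* (0.78), *Cabp1* (0.72), *Camk2b* (0.66) and *Stac2* (0.58) and negative for *Akap7* (−0.78), and none of the 17 passed with the correction.

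The pattern of each gene over all 30 libraries was also set beside that of 14525 genes with a mean of at least 50. The closest genes are given with Pearson's r, as a description, since the libraries share the age and the base-composition differences described above. *Cacna1b* was closest to *L1cam* (r = 0.98), *Dcx* (0.98) and *Dyrk2* (0.98), *Cacna1e* to *Arhgap20* (0.96), *Trim44* (0.96) and *Asxl2* (0.96), and *Cacna1d* to *Kat6b* (0.95), *Pus7* (0.95) and *Meg3* (0.95). *Cacna1a* was closest to *Iglon5* (0.96), *C1ql1* (0.95) and *Csdc2* (0.94), *Cacna1g* to *Sdc3* (0.96), *Mast1* (0.96) and *Notch3* (0.96), *Cacna1i* to *Slc4a3* (0.98), *Shank3* (0.98) and *Ttbk1* (0.98), and *Cacna1h* to *Rasgef1c* (0.93) and *Tmem158* (0.91). *Cacna1c* had no close match, with *Fras1* at 0.81, *Dlgap2* at 0.72 and *Gm21093* at 0.66. The genes named beside the 4 GC-rich members had GC contents from 55.1% to 65.8%, and those named beside *Cacna1b*, *Cacna1d* and *Cacna1e* from 40.6% to 53.1%.

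With the group means removed, the closest genes over the 30 libraries were *Pacs2* (0.89) for *Cacna1a*, *Unc13b* (0.90), *Fam49a* (0.89) and *Dcx* (0.89) for *Cacna1b*, *Dlgap2* (0.84), *Fras1* (0.84) and *Tmem132b* (0.82) for *Cacna1c*, and *Pdk1* (0.89), *Kat6b* (0.88) and *Phka2* (0.86) for *Cacna1d*. They were *Tmem245* (0.94), *Tmem178b* (0.93) and *Cdk14* (0.93) for *Cacna1e*, *Cotl1* (0.95), *Plekhm2* (0.94) and *Arhgef10l* (0.94) for *Cacna1g*, *Stx1a* (0.92), *Ppp1r1a* (0.92) and *Dbn1* (0.91) for *Cacna1h*, and *Ttbk1* (0.95), *Crtc1* (0.95) and *Neurl1a* (0.94) for *Cacna1i*. Of the genes named, *Dcx*, *Dlgap2*, *Fras1*, *Kat6b* and *Ttbk1* were among the 3 closest of the same member both with and without the group means.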

How the data were processed

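Whole-brain poly-A RNA of 30 mice (6 groups of 5, grouped by their labels) had been sequenced as paired ends from TruSeq libraries. The authors quantified reads with Salmon 1.1.0 and its GC bias correction on GRCm38, imported them with tximport and deposited 1 table of read counts divided by DESeq2 1.30.1 size factors. This deposited signal is a normalized count that is not whole, and whole reads could not be recovered, so count models and intervals for counting error were not used and depth is unknown. Per the labels, R was 4.1.1.

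Gene names, positions and GC content came from GENCODE M21 on GRCm38 (99.9% of 19737 identifiers matched). Each comparison was fitted with limma 3.58.1 in R 4.3.3 on log2(value + 1) with an intensity trend, for genes that averaged 10 or more in the compared groups, and p-values were adjusted by Benjamini-Hochberg with a threshold of 0.05. A fold change on this scale understates that of low genes. Two-sided exact permutation tests over mice were added for single genes. HT-Veh and WT-Veh were compared in replicates 1, 3, 4 and 5 and, as an alternative, in all 5 and 5. The tests and the correction were checked on simulated data. The simulated noise was independent between genes, so these checks do not cover GC deviations that differ between libraries of a group.

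The 8 genes, the channel lists and the marker lists were chosen with earlier results of these data known. The text gives the 8 genes in every comparison, by their own values or within a stated range. It also names the 3 genes most like each member. Of the lists, it names the genes that passed or, where over 6 passed in a list, the 2 highest and 2 lowest. A few genes that this rule names are not reported here. Other settings tried were pseudocounts of 0.1 and 5, all genes kept or only those averaging 100, new size factors, the replicate number as a block, no trend, all 6 groups in one fit, a correction that subtracts each library's mean deviation in 10 bins of GC content by 10 of length, each library left out, both replicate 2 vehicle libraries left out, and merged exons as the length. The fits without the 4 libraries under 20000 counts of cerebellar granule markers, and those that combine a left-out set with the correction, were chosen after seeing the data. The labels do not give litters, so mice that shared a dam cannot be identified here and p-values measure the spread between mice.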

Additional observations from a re-analysis of the deposited data

Results flagged for a closer look

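Of 54 sets of 5 mice (the 8 genes and *Arid1b* in 6 groups), 5 held 1 mouse far from the others by Dixon's test at the 95% level, which chance alone gives in about 1 of 20 sets. In P10 WT, replicate 3 had the highest *Cacna1c* value, 4775, and the lowest *Cacna1d* value, 2767, so both L-type flags came from 1 library. In P10 HT, replicate 1 had the lowest *Cacna1a* value, 10721, and it also had the lowest GC slope of the 30 libraries, −0.46. *Arid1b* was lowest at 3164 in P10 WT replicate 5, and at 2320 in WT-Veh replicate 2, the library whose *Arid1b* level lies in the HT range.

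The interaction test of genotype and fluoxetine passed for *Cacna1a* (0.46), *Cacna1g* (0.79) and *Cacna1i* (0.91), on the log2 scale with an adjusted p of 0.0347 each. It passed for 27.3% of all 17796 tested genes. All 3 are GC-rich, and none passed with the correction for GC content and length. None passed without both replicate 2 vehicle libraries or without the libraries low in cerebellar markers. The calls were also lost in 8 of the 20 fits that left out 1 library.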

How the results depend on the processing

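Each member's log2 fold change or difference in 9 comparisons was recomputed under the other settings, which gave 1784 values. Of these, 1563 kept their direction and their side of the threshold, 67 lost and 28 gained a call, and 126 changed direction, mostly values near 0. Apart from the correction for GC content and length and from leaving out 1 library, 651 of 680 values were unchanged in this sense. The cause of the changes was not tested. Depth is unknown, so the spread between mice is the only limit that can be given.

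The count of members called in the HT age comparison, 3 of 8, became 6 with all 6 groups in one fit, 5 with the correction, 6 with the replicate block and the correction, 5 without both replicate 2 vehicle libraries with the correction, and 3 to 5 when 1 library was left out (5 without HT-Veh replicate 3). For HT-Flx against WT-Flx, 6 of 8 became 2 with the block and the correction, 2 without the libraries low in cerebellar markers with the correction, and 5 to 7 when 1 library was left out. For fluoxetine in HT mice, 0 became 2 with all 6 groups in one fit, and for fluoxetine in WT mice 0 became 2 without WT-Veh replicate 1 or 5 (range 0 to 2). The interaction of genotype and fluoxetine, 3 of 8, became 0 with the correction, with the block and the correction, without both replicate 2 vehicle libraries and without the libraries low in cerebellar markers (each with and without the correction), and ranged from 0 to 3 when 1 library was left out. Over all genes, HT-Flx against WT-Flx had 11330 calls, 6398 with the correction, 5276 with the block and the correction and 4451 without the low-cerebellar libraries with the correction. Fluoxetine in HT mice had 0 calls, 1355 with the block and 5916 with all groups in one fit. Fluoxetine in WT mice had 0 calls, 1400 without WT-Veh replicate 1 and 624 without replicate 5. The interaction of genotype and fluoxetine had 4852 calls, 7639 with all groups in one fit, 0 with the correction, without both replicate 2 vehicle libraries or without the low-cerebellar libraries, and 0 to 7667 when 1 library was left out. The genotype comparison at P10 had 4 calls, 7 with the block, 8 with the block and the correction, 0 with all groups in one fit and 3 to 8 when 1 library was left out. The interaction of genotype and age had 0 calls and 2 without the trend.

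Same-numbered mice deviated together in every pair only for age in WT, and there the correlations were small (0.02 to 0.04). The highest mean correlation was 0.18 (fluoxetine in HT mice, lowest pair −0.02, 3 libraries closest to their own number), so the numbers were not taken to pair mice. With the replicate block alone, HT-Flx against WT-Flx had 5 of 8 members called and the other comparisons kept their counts.

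With the length of the merged exons in place of the longest transcript, the shares in P10 WT and WT-Veh became 9.34% and 9.85% for L, 16.2% and 12.3% for N, 11.03% and 9.79% for R and 40.5% and 46.1% for T, and P/Q in P10 WT became 23.0%.

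Values that changed direction are given as log2 differences, by comparison. With the correction, whether or not the block was added, they were for age in WT *Cacna1h* −0.17, for age in HT *Cacna1c* 0.012 and *Cacna1h* −0.21 and for genotype at P10 *Cacna1a* 0.0041. Further such values were for genotype in vehicle *Cacna1a* −0.10, *Cacna1e* 0.016, *Cacna1g* −0.044 and *Cacna1i* −0.089, for HT-Flx against WT-Flx *Cacna1a* −0.24 and *Cacna1h* −0.31 and for fluoxetine in HT *Cacna1c* −0.016, *Cacna1d* 0.016, *Cacna1a* −0.17 and *Cacna1h* −0.092. The last of them were for fluoxetine in WT *Cacna1a* 0.0047, for the interaction with fluoxetine *Cacna1d* 0.0041, *Cacna1a* −0.18 and *Cacna1h* −0.37 and for the interaction with age *Cacna1a* −0.066 and *Cacna1h* −0.037. Without both replicate 2 vehicle libraries it was for age in WT *Cacna1h* −0.055. With the correction added to that, the values were for age in WT *Cacna1h* −0.25, for age in HT *Cacna1c* 0.036 and *Cacna1h* −0.17 and for fluoxetine in HT *Cacna1c* −0.035, *Cacna1d* 0.014, *Cacna1a* −0.18 and *Cacna1h* −0.14. In the interactions they were for the interaction with fluoxetine *Cacna1a* −0.13 and *Cacna1h* −0.50 and for the interaction with age *Cacna1a* −0.11 and *Cacna1g* −0.014. Without the libraries low in cerebellar markers they were for age in WT *Cacna1h* −0.14, for genotype in vehicle *Cacna1a* −0.039, *Cacna1b* 0.011, *Cacna1e* 0.0092 and *Cacna1g* −0.034 and for fluoxetine in WT *Cacna1h* −0.028. Another was for the interaction with age *Cacna1i* 0.032. With the correction added to that as well, they were for age in WT *Cacna1h* −0.37, for genotype in vehicle *Cacna1d* 0.030, *Cacna1a* −0.12, *Cacna1b* 0.043, *Cacna1e* 0.12, *Cacna1g* −0.077 and *Cacna1i* −0.053 and for HT-Flx against WT-Flx *Cacna1a* −0.31 and *Cacna1h* −0.050. The rest were for fluoxetine in WT *Cacna1a* 0.016, for the interaction with fluoxetine *Cacna1a* −0.19 and *Cacna1h* −0.31 and for the interaction with age *Cacna1d* 0.023, *Cacna1a* −0.13, *Cacna1e* 0.040 and *Cacna1g* −0.031. Rescaling by size factors gave for genotype at P10 *Cacna1c* 0.0031 and for genotype in vehicle *Cacna1a* −0.00069.

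Leaving out 1 library changed the direction of values in these ranges: for age in WT *Cacna1h* from −0.055 to 0.12, for age in HT *Cacna1c* from −0.058 to 0.023 and for genotype at P10 *Cacna1c* from −0.024 to 0.029, *Cacna1a* from −0.054 to 0.0029 and *Cacna1i* from −0.0014 to 0.089. The others were for genotype in vehicle *Cacna1a* from −0.048 to 0.057, *Cacna1b* from −0.15 to 0.011, *Cacna1e* from −0.20 to 0.049, *Cacna1g* from −0.16 to 0.15 and *Cacna1i* from −0.22 to 0.23, for fluoxetine in HT *Cacna1c* from −0.030 to 0.072 and *Cacna1d* from −0.15 to 0.011 and for fluoxetine in WT *Cacna1c* from −0.013 to 0.10, *Cacna1d* from −0.017 to 0.14, *Cacna1b* from −0.021 to 0.095 and *Cacna1h* from −0.085 to 0.12, and for the interaction with fluoxetine *Cacna1c* from −0.078 to 0.042, for the interaction with age *Cacna1g* from −0.021 to 0.21 and *Cacna1i* from −0.19 to 0.15.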
